A study of Homo sapiens with 8 samples.

Results

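The question addressed here was which chromatin sites still set the V2084D form of ARID1A apart from the wild-type protein when STUB1 was knocked down. The comparison used 4 of the 6 deposited ChIP-seq peak lists of the study, 2 labelled as the V2084D protein with STUB1 knockdown and 2 labelled as the wild-type protein (WT). All 4 came from Huh7, a human line of hepatocellular carcinoma. Its ARID1A gene had been knocked out, and a Flag-tagged ARID1A was stably expressed from a lentivirus, so that the WT cells carry the knockout and a transgene as well. The WT cells expressed ARID1A WT-Flag without a knockdown named in the labels. The other group expressed ARID1A V2084D-Flag together with knockdown of STUB1. Chromatin was fixed with formaldehyde, sonicated and precipitated with a Flag antibody. The labels do not say whether replicate libraries are separate cultures, so a p-value below measures only how these libraries vary, and that spread may be technical. They give neither the number of knockout clones nor the promoter of the lentivirus. The peak names carry the tag 24KO in all lists, shEV in the WT lists and sh183 in the knockdown lists, and the meaning of these tags is not given in the sources used here. Another group, V2084D without the knockdown (2 lists), is quoted in places for comparison, and 2 WT input libraries named in the labels were not analysed here.

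ARID1A is the DNA-binding subunit that defines the canonical BAF form of the SWI/SNF complexes, which use ATP to slide or evict nucleosomes and so open promoters and enhancers to transcription factors. It is one of the chromatin regulators most often mutated in liver cancer. STUB1, also called CHIP, is a ubiquitin ligase that works with the chaperones HSP70 and HSP90 and marks misfolded client proteins for the proteasome. A peak in these lists is a stretch of the genome where Flag-precipitated DNA exceeded the local expectation of the peak caller. Its fold enrichment is the caller's ratio over that expectation, as the authors' lists give it. Folds of different libraries are set side by side here as descriptions of each list and not as a measured change, and ranks are compared between groups only in lists of equal length.

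The sequence around the starts of 6 genes is shown as examples from the main classes, and does not describe a class. MIS12 and PIGP had a strong WT region and no peak with STUB1 knockdown. TXLNA and H3-3A had a strong peak in all 4 lists. In lists of equal length, HOXD11 was among the strongest regions that only WT held. TMEM53 was among the strongest regions that only the knockdown lists held at that length. In the full lists, HOXD11 also had a peak of fold 4.03 in the first knockdown list. TMEM53 also had one of fold 4.37 in the first full WT list. The windows run from 250 bases before to 50 bases after the RefSeq start on the GRCh38.p14 assembly, 5′ to 3′ on the gene's strand: MIS12 at chr17:5486124-5486423 (plus strand), PIGP at chr21:37072754-37073053 (minus), TXLNA at chr1:32179425-32179724 (plus), H3-3A at chr1:226061581-226061880 (plus), HOXD11 at chr2:176107030-176107329 (plus) and TMEM53 at chr1:44674432-44674731 (minus). Capitals mark matches, on either strand, to the GC box GGGCGG, the CCAAT box, the ETS motif CCGGAAG, the cAMP response element TGACGTCA, the AP-1 motif TGACTCA, the NRF1 motif, the E-box CACGTG, the TATA motif TATAAA and the TEAD motif GGAATG.
MIS12: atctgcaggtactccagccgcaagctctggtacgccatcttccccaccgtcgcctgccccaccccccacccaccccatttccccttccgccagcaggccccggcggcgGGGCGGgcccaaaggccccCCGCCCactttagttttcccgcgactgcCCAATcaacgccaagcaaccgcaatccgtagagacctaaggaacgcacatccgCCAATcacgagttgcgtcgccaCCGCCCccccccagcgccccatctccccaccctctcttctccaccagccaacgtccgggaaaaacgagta
PIGP: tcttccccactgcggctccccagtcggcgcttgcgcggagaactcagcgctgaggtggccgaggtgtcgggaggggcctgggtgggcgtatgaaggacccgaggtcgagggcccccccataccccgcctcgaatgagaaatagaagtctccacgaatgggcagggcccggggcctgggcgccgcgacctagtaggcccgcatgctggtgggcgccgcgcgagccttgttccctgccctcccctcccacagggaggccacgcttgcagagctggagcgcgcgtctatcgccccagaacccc
TXLNA: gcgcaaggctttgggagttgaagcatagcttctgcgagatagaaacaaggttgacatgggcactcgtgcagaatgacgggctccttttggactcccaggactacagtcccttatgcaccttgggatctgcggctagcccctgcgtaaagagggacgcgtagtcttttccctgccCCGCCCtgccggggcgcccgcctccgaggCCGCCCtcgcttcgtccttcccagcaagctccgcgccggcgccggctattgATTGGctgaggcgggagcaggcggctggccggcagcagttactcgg
H3-3A: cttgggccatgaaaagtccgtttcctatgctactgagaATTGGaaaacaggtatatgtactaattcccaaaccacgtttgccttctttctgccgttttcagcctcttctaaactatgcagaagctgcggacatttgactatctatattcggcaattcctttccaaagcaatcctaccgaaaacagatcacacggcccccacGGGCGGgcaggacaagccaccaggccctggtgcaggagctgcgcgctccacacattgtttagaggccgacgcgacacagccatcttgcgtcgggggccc
HOXD11: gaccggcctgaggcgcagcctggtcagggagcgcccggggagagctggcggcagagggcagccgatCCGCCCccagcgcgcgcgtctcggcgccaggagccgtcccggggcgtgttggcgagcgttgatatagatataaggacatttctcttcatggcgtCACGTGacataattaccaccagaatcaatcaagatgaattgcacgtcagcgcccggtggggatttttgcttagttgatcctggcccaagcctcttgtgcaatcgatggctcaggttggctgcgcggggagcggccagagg
TMEM53: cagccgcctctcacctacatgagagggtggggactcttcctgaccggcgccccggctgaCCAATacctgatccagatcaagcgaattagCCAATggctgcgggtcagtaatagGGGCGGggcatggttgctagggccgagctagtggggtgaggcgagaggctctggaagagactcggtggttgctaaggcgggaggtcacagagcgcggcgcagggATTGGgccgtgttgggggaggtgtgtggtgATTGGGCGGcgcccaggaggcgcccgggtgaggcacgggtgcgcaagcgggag
The MIS12 window held 3 GC boxes and 2 CCAAT boxes, TXLNA 2 and 1, H3-3A 1 of each, and TMEM53 2 and 4, with 1 GC box and 1 CCAAT box overlapping. HOXD11 held 1 GC box and 1 E-box, and PIGP none of the motifs searched. The peak summit lay inside the printed window at PIGP and HOXD11, and outside it at the other 4 genes.

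The lists with STUB1 knockdown were shorter than the WT lists. The WT lists held 27587 and 26515 peaks and the knockdown lists 8904 and 6663, a 3.51-fold difference of the geometric means. Covered sequence came to 18.1 and 16.7 Mb in WT and to 4.69 and 3.22 Mb with the knockdown. The difference in log2 peak number was −1.81, with −2.05 to −1.57 over the 4 pairs of libraries (two-sided exact permutation test, p = 0.333, the smallest value that 2 lists against 2 can give, and 0.333 after adjustment over the 5 comparisons of libraries). Read depth is unknown for every list, so fewer occupied sites and a shallower or less efficient library cannot be told apart from the number of peaks. The median fold enrichment was nearly the same in the lists as deposited, 4.55 and 4.37 in WT against 4.56 and 4.34 with the knockdown. Lists cut to the same number of peaks were therefore set beside the full lists throughout. Each such list holds the 6000 peaks with the highest −log10 p of a library, which is 21.7% and 22.6% of the WT lists but 67.4% and 90.0% of the knockdown lists. The last peak inside and the first peak outside that limit had the same −log10 p to the digits shown, 10.5 in the first WT list, 9.89 in the second, 6.46 in the first knockdown list and 4.79 in the second.

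Peaks present in both WT lists and overlapping by at least 1 bp were joined into 16157 WT regions. Of these, 8110 (50.2%) had no overlapping peak in either knockdown list and are called lost, 4296 (26.6%) had one in a single knockdown list, and 3751 (23.2%) had one in both and are called kept. The knockdown lists covered 41.5% (95% Wilson interval 40.8 to 42.3%) and 31.5% (30.8 to 32.2%) of the WT regions (mean 36.5% ± 7.12, SD, n = 2). In the other direction, 3966 regions were shared by both knockdown lists, and the WT lists covered 96.7% and 95.1% of them. The knockdown lists were thus nearly contained in WT, and only 62 of their regions (1.56%) lacked a peak in both WT lists.

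What was kept followed the strength of the WT region. WT regions were ranked by the worse of their −log10 q ranks in the WT lists and divided into 10 bins. In the strongest bin the knockdown lists covered 85.0% and 72.9% of the regions and 10.02% had no knockdown peak. In the weakest bin they covered 16.1% and 10.1%, and 78.7% had none. The covered share fell from each bin to the next in both knockdown lists. Lost regions had a median WT fold of 4.64 and 4.40 and a median width of 766 bp, and kept regions 6.31 and 5.96 and 1180 bp. The medians of the kept regions in the knockdown lists were 4.96 and 4.62.

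Strong WT regions were nevertheless among those lost. At ERBIN, which encodes a scaffold protein that binds the receptor ERBB2, the fold was 9.81 and 9.55 in WT (chr5:65924798-65926848), with no knockdown peak and 4.99 and 4.68 in V2084D alone. The region at MIS12, a subunit of the kinetochore complex that joins chromosomes to the spindle, had folds of 7.79 and 7.66 in WT (chr17:5486386-5487061), and its summit lies 305 bp from the MIS12 start inside both MIS12 and the neighbouring DERL2. PIGP, a subunit of the enzyme that starts GPI anchor synthesis, had 10.3 and 7.26 (chr21:37072590-37074665, summit inside the gene 39 bp from its start).

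Other strong lost regions lay near genes of varied function. MTURN, a regulator of neural differentiation, had folds of 9.97 and 11.7 in WT, and ATF7IP, a partner of the H3K9 methyltransferase SETDB1, had 9.25 and 8.74. Neither had a peak in any of the 4 lists of the V2084D protein. At AGAP2, a GTPase-activating protein for ARF, the summit lay inside the gene 15749 bp from its start, with WT folds of 10.2 and 8.95. The Ras-like RASL11A had 9.81 and 8.95, LRRC58 8.92 and 8.78, and IRX5, a homeobox transcription factor, 10.1 and 9.70. These last 4 had no knockdown peak but at least 1 peak in V2084D alone.

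Among the strongest kept regions, TXLNA, which encodes a syntaxin-binding protein, had folds of 17.6 and 14.1 in WT and 10.3 and 11.0 with the knockdown (chr1:32179303-32180859, summit inside the gene). H3-3A, one of the genes of the replication-independent histone H3.3, had 14.7 and 12.8 against 10.5 and 8.17 (chr1:226061742-226063877). KMT2A, the H3K4 methyltransferase MLL1, had 14.0 and 17.3 against 13.7 and 15.5 (chr11:118434547-118437985), so its groups overlapped. Its rank by −log10 p was 106 and 42 in the WT lists of 6000 and 20 and 6 in the knockdown lists of 6000. EEF1A1, the translation elongation factor, ranked 59 and 68 in WT and 2 and 1 with the knockdown, and 2 and 3 in V2084D alone. Its folds were 4.12 and 3.84 in WT and 4.54 and 11.0 with the knockdown. The lentiviral promoter is not given, so the chromosomal locus and any vector sequence that matches it cannot be told apart here. ZMPSTE24, the protease that processes prelamin A, CEP295, a centriole protein, SNX6, a sorting nexin, HIGD2A, a mitochondrial assembly factor, and CCDC200 were also among the strongest kept regions. The region named for SNX6 lies 73767 bp from its start, near the other annotated end of the gene.

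Coverage differed less by place than by strength. A summit was called at a gene start when it lay within 1 kb of the annotated start of a protein-coding gene, or of either end for genes without a strand in the tables used. At gene starts the knockdown lists covered 46.9% and 35.1% of WT regions, and over 10 kb away 34.0% and 27.0%. Averaged over the strength bins, so that strong and weak regions count alike at both places, the values were 43.2% and 31.7% at gene starts and 39.1% and 31.5% beyond 10 kb. The second knockdown list then covered both places nearly alike. No test was made of these shares over regions of the same libraries.

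The share of peaks at gene starts depended on list length. In the lists as deposited it was 43.0% and 43.3% in WT and 56.0% and 54.5% with the knockdown, a difference of 12.1 percentage points (pairs 11.2 to 13.0, exact permutation p = 0.333). In lists of 6000 it was 66.7% and 66.5% in WT and 58.3% and 54.7% with the knockdown, a difference of −10.1 points (pairs −12.0 to −8.18, exact permutation p = 0.333). The groups did not overlap in either case, and the direction turned. V2084D alone had 56.1% and 55.4% in lists of 6000. Requiring a fold of at least 5 left 0.162 points, and requiring −log10 q of at least 5 gave −0.54 points. Peaks over 10 kb from any start of a protein-coding gene were 20.2% and 19.6% of the top 6000 in WT and 24.9% and 27.6% with the knockdown. The strongest WT peaks were also wider, with medians of 935 and 877 bp against 496 and 417 bp, a log2 difference of −0.99 (pairs −1.16 to −0.82, exact permutation p = 0.333).

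**Figure D1:**
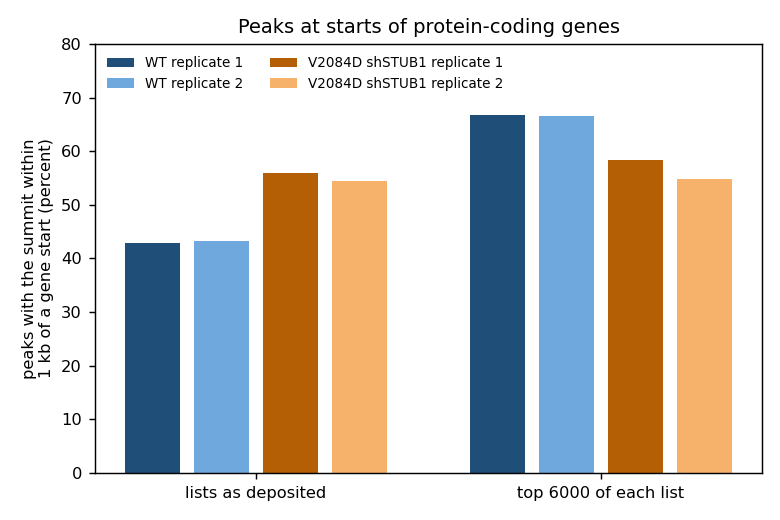
Percent of peaks with the summit within 1 kb of the start of a protein-coding gene, 1 bar per library, in the lists as deposited and in the top 6000 peaks of each. As deposited the knockdown bars (56.0 and 54.5%) stand above the WT bars (43.0 and 43.3%), and at equal length below them (58.3 and 54.7% against 66.7 and 66.5%).

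In lists of equal length, the WT lists shared 60.3% of their peaks with each other (mean of both directions). The knockdown lists shared 51.3% with each other. A WT and a knockdown list shared 51.2% and 51.1% where the first knockdown library was used and 47.9% and 47.2% where the second was. Overlap within groups exceeded that between groups by 6.44 percentage points (two-sided exact permutation test over 3 splits, p = 0.333, the smallest it can give). That excess lay mainly with the WT pair, since the first knockdown list shared about as much with either WT list as with the second knockdown list. The knockdown lists shared 45.7% to 49.1% with the lists of V2084D alone, and those shared 44.9% with each other. At this length the replicate spread of the knockdown group is about as large as its distance from WT, and single regions below are named only where both lists of a group hold them.

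Both WT lists of 6000 held 3540 regions in common. Of these, 1613 (45.6%) lay in all 4 lists, 1058 (29.9%) in 1 knockdown list and 869 (24.5%) in neither. Of the 869, 622 had no peak in either full knockdown list, 230 had one in a single list and 17 in both. The full knockdown lists hold only 8904 and 6663 peaks, so a region outside the top 6000 had little room to appear in them. These counts therefore cannot tell weak from absent sites. The full WT lists, with 27587 and 26515 peaks, reach much further, so the counts of the other direction below are not on the same footing. The 869 lay at gene starts as often as the rest, 70.5% against 70.7% of all 3540, and had a median width of 1120 bp. By chromosome they differed, with 6.67% on chromosome 1 against 12.7% of all 3540, and 3.11% on chromosome 18 against 1.27%. In the other direction 2988 regions were common to both knockdown lists of 6000, and 612 (20.5%) of them were in neither WT list of that length. Nearly all of those were weaker WT sites and not sites that WT lacked: 498 of the 612 had a peak in both full WT lists, 85 in 1 and 29 in none. They lay at gene starts less often, 43.3% against 62.0% of all 2988, and had a median width of 606 bp.

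HOX genes were among the strongest regions that only WT held at equal length. HOXD11, a homeobox gene of limb and trunk patterning, carried the strongest of them (chr2:176106438-176108277). Its fold there was 12.1 and 10.5 in WT, with ranks of 129 and 224. The first full knockdown list had a peak of fold 4.03, the second none, and V2084D alone had none and 3.64. HOXC4 held another (chr12:54051327-54055214), 8.49 and 8.88 in WT against 2.94 and 2.96 in the full knockdown lists. HES4, a transcriptional repressor of the Notch pathway, had 13.5 and 11.0 in WT and 4.24 and no peak with the knockdown. CFAP20, a protein of cilia, had 10.3 and 10.7 against 3.84 and no peak, and LMO4, a LIM-domain cofactor, 8.94 and 9.06 against 3.80 and no peak. TMEM138, ERLIN2, CA11 and ERBIN were also among these regions, and in each one named here both WT folds were at least 8.02, to 2 decimals.

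The strongest regions of the knockdown lists that were outside both WT lists of 6000 mostly had weaker peaks in the full WT lists. At INTS10, a subunit of the Integrator complex that processes small nuclear RNAs, the fold was 9.66 and 10.3 with the knockdown, and the full WT lists had 5.97 and 5.34. TMEM53, whose promoter is printed above, had 5.73 and 5.69 against 4.37 and no peak (chr1:44673894-44674984, summit inside the gene). TLE3, a Groucho-family corepressor, had 6.49 and 5.91 against 3.45 and 5.33. SVBP, a partner of the vasohibin peptidases that remove tyrosine from tubulin, had 7.64 and 5.56 against 4.20 and 4.09. HCN2, ZFAND3, LSG1, TYW1B and RASA4 were also among them, and at RASA4 the groups touch, with 5.18 and 3.94 against 3.29 and 3.94. TYW1B and RASA4 have near-identical copies elsewhere in the genome, and how reads of copies were placed is not given in the sources used here.

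The 62 knockdown regions with no WT peak at all were weak and mostly far from gene starts. Their median fold was 4.24 and 4.08, 10 (16.1%) lay at a gene start against 61.2% of all 3966, and 36 lay over 10 kb from any start. Of the 62, 28 (45.2%) were on chromosome 1, against 19.7% of all knockdown regions. V2084D alone had a peak in 1 or both lists at 35 of the 62, and in both at 7. Only regions within 10 kb of a protein-coding gene are named. The strongest of these lay near PPCS, an enzyme of coenzyme A synthesis, with folds of 4.80 and 4.34 (chr1:42457564-42458060). LASP1, an actin-binding protein, had 5.24 and 5.27, and EDN2, the peptide hormone endothelin 2, 4.75 and 3.95. AP3M2, PXDC1, SEC16A, DCTN2, MRPL41, DLGAP3 and CKS1B follow. Ranks in the knockdown lists ran from 2011 to 6044 for the 10 named, so none of these 10 was among the strongest peaks. Ranks of the others are not given here.

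The chromosomes did not keep their peaks alike. Chromosome 1 held 11.5% and 11.8% of the top 6000 WT peaks and 17.5% and 18.4% of the knockdown peaks, a difference of 6.31 points. V2084D alone had 18.6% and 18.1%. Chromosome 18 held 1.47% and 1.55% in WT and 0.55% and 0.467% with the knockdown, a log2 ratio of −1.57. Of 24 chromosomes, 6 (25%) had a higher share in both knockdown lists than in either WT list and 12 (50%) a lower one. The other 5 higher ones were chromosomes 6, 15, 16, 19 and 22. Among the lower ones, chromosome 13 had 2.07% and 2.20% against 1.42% and 1.28%, and chromosome 5 had 4.77% and 4.67% against 2.95% and 3.08%.

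**Figure D2:**
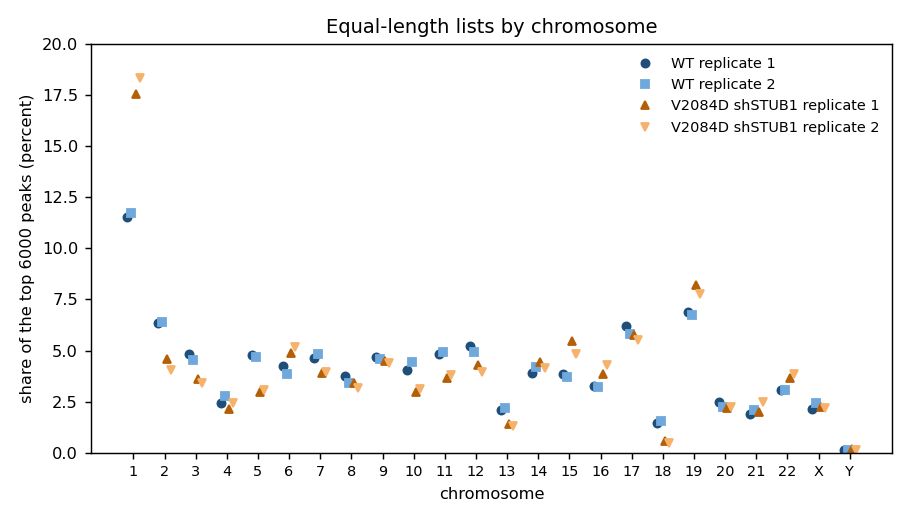
Share of the top 6000 peaks (percent) on each chromosome, 1 point per library. On chromosome 1 both knockdown points (17.5 and 18.4%) lie above both WT points (11.5 and 11.8%), and on chromosome 18 both lie below (0.55 and 0.467% against 1.47 and 1.55%).

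The same chromosomes stood apart when WT regions of like strength were compared. Averaged over strength bins, the knockdown lists covered 56.3% and 44.8% of WT regions on chromosome 1, against 39.4% and 29.5% on all chromosomes but 1 and 6. On chromosome 18 the values were 22.8% and 9.18%, from 229 regions with 16 in the smallest bin. The excess on chromosome 1 was concentrated. In windows of 5 Mb with at least 10 peaks on average, 8 of 184 (4.35%) held at least 2 times more top 6000 peaks in each knockdown list than in either WT list, and 5 of the 8 run side by side from 30 to 55 Mb of chromosome 1. From 30 to 35 Mb the WT lists had 32 and 38 peaks and the knockdown lists 108 and 111, and V2084D alone had 124 and 112. The others were 135 to 140 Mb of chromosome 9, with 34 and 32 peaks against 82 and 89, 0 to 5 Mb of chromosome 6, and 85 to 90 Mb of chromosome 15. The chromosome 15 window, with 9 and 9 against 19 and 22, reached the minimum only through the knockdown lists and is given as a description. V2084D alone had counts near those of the knockdown in all 8. In 3 windows (1.63%) each knockdown list held at most 0.5 times as many, and 1 of them, 25 to 30 Mb of chromosome 7 with 24 and 22 against 10 and 6, contains the HOXA cluster. These 3 reached the minimum only through the WT lists, so their count is a description too. The cause of these blocks was not tested. For the gene lists below, counts of lost and kept genes in the full lists are also given without chromosomes 1 and 6. Of the strongest kept regions named above, TXLNA, ZMPSTE24 and H3-3A lie on chromosome 1, and TXLNA and ZMPSTE24 within the 30 to 55 Mb stretch, as do TMEM53, SVBP, PPCS, EDN2 and DLGAP3.

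At the level of genes, a WT region lay no more than 10 kb from either annotated end at 12325 of 20037 protein-coding genes (61.5%). Of these, 4035 (32.7%) had no knockdown peak in that range and count as lost, 3599 (29.2%) had one in a single library and 4691 (38.1%) in both, and count as kept. Leaving out chromosomes 1 and 6, 34.3% were lost and 35.8% kept. At equal length, 4210 genes (21%) had a WT region, of which 770 (18.3%) had no knockdown peak and 2328 (55.3%) had one in both lists, while 388 of 3334 genes with a knockdown region (11.6%) had no WT peak. These shares are the background for each gene list below. A knockdown peak counts wherever it lies in that range and need not overlap the WT region of the gene. RPL23, for example, counts as kept, and its strongest knockdown peaks are those of the region named for LASP1, which has no WT peak. The fold quoted for a gene is the highest of any peak within 10 kb, so WT and knockdown folds of a gene can come from different sites. Neighbouring genes can share a region, and no test was made of a list.

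**Figure D3:**
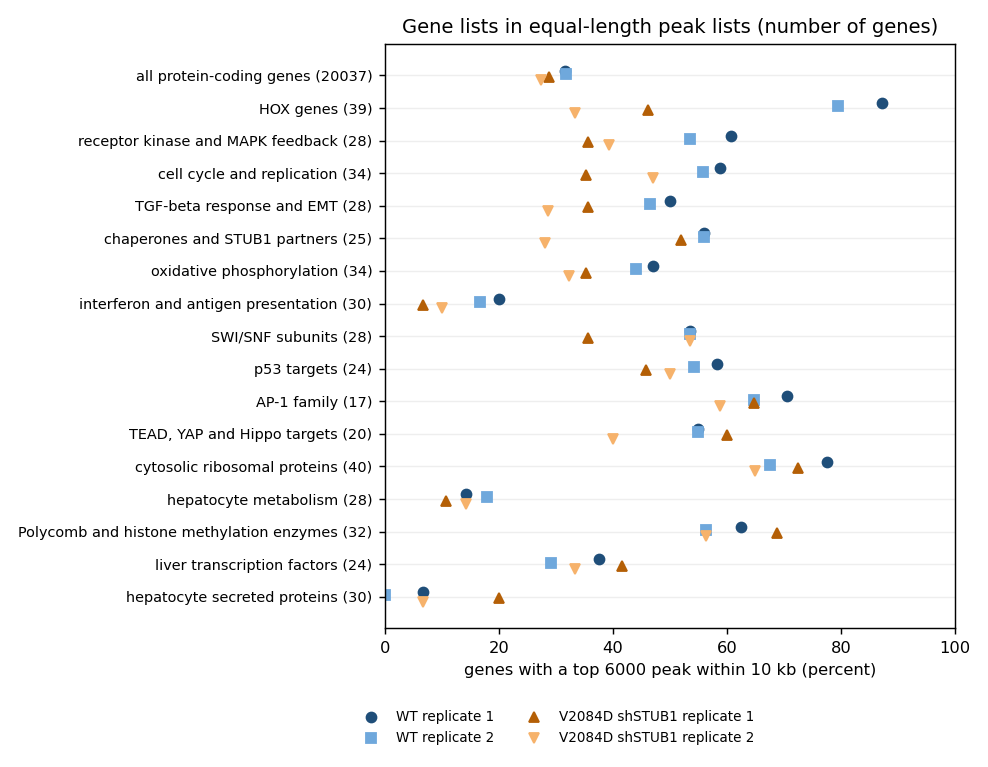
Percent of the genes of each list with a top 6000 peak no more than 10 kb from either end, 1 point per library (blue WT, orange V2084D with STUB1 knockdown), lists in order of the difference between the groups, with all protein-coding genes on top. HOX genes drop from 87.2 and 79.5% to 46.2 and 33.3%, while cytosolic ribosomal protein genes stay at 77.5 and 67.5% against 72.5 and 65.0%.

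HOX genes encode the homeobox factors that give cells their position along the body axis and lie in 4 clusters that Polycomb complexes silence in many adult tissues. Of 39 HOX genes, 34 and 31 had a top 6000 peak in the WT lists and 18 and 13 in the knockdown lists. V2084D alone had 14 and 23. The shares of all protein-coding genes were 31.7% and 31.8% in WT and 28.9% and 27.4% with the knockdown. At equal length 13 of 28 HOX genes with a WT region had no knockdown peak, where the background is 18.3%, and 8 of 28 had one in both lists, where it is 55.3%. In the full lists the gene counts were nearer to the background, with 9 of 37 lost and 14 kept, since 1 peak in a cluster serves several genes. Counted by region, the clusters held 87 WT regions, of which the knockdown lists covered 18 and 8, and 67 had no knockdown peak, where 50.2% of all WT regions had none. By the fold quoted per gene the HOX list was strong in WT, with a median of 7.36 against 5.72 for all genes with a WT region. That fold is the highest of any peak near a gene, so a dense cluster can raise it. The strength of the 87 regions themselves is not given here.

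The 4 HOX clusters differed. The HOXB cluster lost most: 7 of its 9 genes with a WT region had no knockdown peak, and 26 of its 28 regions had none. HOXB2 had folds of 7.19 and 6.77 in WT and HOXB4 7.95 and 5.03, and neither had a knockdown peak. HOXB9 had 9.13 and 6.52 against 2.77 and 3.25 and was the only kept gene of that cluster. In the HOXA cluster none of 11 genes was lost, yet 23 of 29 regions were, and the folds were lower: HOXA3 had 9.96 and 7.76 in WT and 4.36 and 4.09 with the knockdown. HOXC genes were kept most often, 7 of 9, with HOXC5 and HOXC6 at 10.7 and 11.1 against 5.71 and 4.03, from the same peaks. Counted by region, 3 of 17 in that cluster had a peak in both knockdown lists and 9 in neither. The shares over all WT regions were 23.2% and 50.2%. In the HOXD cluster HOXD3 and HOXD4 were lost, from WT folds of 6.29 and 6.12 at HOXD3, and 9 of 13 regions had no knockdown peak. Wherever a HOX gene with a WT region had a knockdown peak, its highest fold there was below both WT folds. Kept WT regions in general also had lower median folds in the knockdown lists, 4.96 and 4.62 against 6.31 and 5.96. The whole list lies off chromosomes 1 and 6.

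Genes of cytosolic ribosomal proteins, the subunits of the translating ribosome, mostly counted as kept. Of 38 with a WT region, 26 (68.4%) were kept and 3 (7.89%) lost, beside 38.1% and 32.7% of all genes, and without chromosomes 1 and 6 the counts were 21 and 3 of 31. RPS2 had folds of 14.6 and 10.5 in WT and 5.67 and 8.11 with the knockdown, from the region that also serves NDUFB10. The 3 lost members were RPL37, RPL15 and RPL30, with WT folds between 3.25 and 5.27. RPSA, which encodes the laminin-receptor ribosomal protein, was kept but ranked 1263 and 1451 in WT and 5061 and 4923 with the knockdown in lists of 6000. The ribosomal list was also strong in WT by the fold quoted per gene, with a median of 6.60. A tRNA gene lay within 500 bp of 1.09% of all WT regions (176 of 16157), 2.61% of kept (98 of 3751) and 0.407% of lost ones (33 of 8110). At equal length the shares were 1.67% of all WT regions (59 of 3540) and 3.04% of those in all 4 lists (49 of 1613). Of those in WT only it was 0.23% (2 of 869). These tRNA shares are not given without chromosomes 1 and 6. The tRNA distance was chosen after values had been seen.

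Of 29 Polycomb and histone methylation genes with a WT region, 17 were kept and 3 lost, beside 38.1% and 32.7% of all genes. None of the 14 with an equal-length WT region was without a knockdown peak. Without chromosomes 1 and 6, 15 of 25 were kept and 3 lost. Apart from KMT2A, described above, RBBP4, a histone chaperone shared by several complexes, had folds of 7.36 and 9.86 in WT and 7.45 and 7.41 with the knockdown, and lies on chromosome 1. EZH2, the H3K27 methyltransferase, had 9.80 and 10.04 against 5.87 and 4.96. The 3 lost were PCGF3, PCGF5 and PCGF2, which encode alternative subunits of Polycomb complex 1. Of 25 genes of the SWI/SNF complexes themselves with a WT region, 10 (40%) were kept, near the 38.1% of all genes. A further 13 were covered by a single knockdown library, beside 29.2%, and 2 were lost, beside 32.7%. Without chromosomes 1 and 6, 9 of 22 were kept and 2 lost. SMARCB1, the core subunit, had 10.6 and 11.2 against 8.45 and 6.19. BCL7B, another subunit, had 10.7 and 10.8 against 4.56 and 3.59 and ranked 282 and 191 in WT and 4292 and 5809 with the knockdown in lists of 6000. The lost ones were BRD9 and BRD7, the bromodomain subunits of the GBAF and PBAF forms.

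Stress and growth transcription factors of the AP-1 family, which often recruit SWI/SNF complexes to enhancers, kept 10 of 16 genes and lost 2. Of all genes with a WT region, 38.1% were kept and 32.7% lost. ATF4, the effector of the integrated stress response, had folds of 6.65 and 7.44 in WT and 6.84 and 7.26 with the knockdown, so its groups overlapped, and ranked 1458 and 305 against 215 and 54. JUND had 8.30 and 8.49 against 5.21 and 4.04. ATF2, with 6.50 and 6.18 in WT, was lost together with ATP5MC3, which shares its region. Of the TEAD, YAP and Hippo genes, which control organ size, 10 of 17 were kept and 3 lost, beside the same 38.1% and 32.7%. At −log10 q of at least 5, 3 and 1 of the 17 had a knockdown peak (17.6% and 5.88%). Of all genes with a WT region 27.0% and 14.1% had one. By the fold quoted per gene this list was strong in WT, with a median of 6.49 against 5.72. YAP1, the coactivator of the pathway, had 6.29 and 5.87 against 4.08 and 4.02, and TEAD4, its DNA-binding partner, 8.10 and 10.4 against 4.91 and 3.11. CRIM1, LATS1 and LATS2 were the lost members, and LATS1 and LATS2 encode the kinases that restrain YAP1. Without chromosomes 1 and 6 the counts in this list were 7 kept and 2 lost of 11. Leaving out those chromosomes kept 8 and lost 2 of 13 AP-1 genes.

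Genes of hepatocyte secreted proteins and metabolism carried few WT regions, beside the 61.5% of all protein-coding genes with one. Of 30 hepatocyte secreted proteins 7 had one, of which 1 was lost and 2 kept. Of 28 genes of hepatocyte metabolism 8 had one, with 2 lost and 3 kept. Among all genes with a WT region 32.7% were lost and 38.1% kept. Without chromosomes 1 and 6, 1 of 6 secreted proteins was lost and 2 kept, and the metabolism counts did not change. The lost secreted protein was APOE, with WT folds of 4.32 and 3.96. Liver transcription factors were covered more often, 18 of 24, with 4 lost and 9 kept, beside 32.7% and 38.1% of all genes with a WT region. Without chromosomes 1 and 6, 3 of 15 were lost and 8 kept. PROX1, which has roles in hepatocyte and lymphatic development, had 8.16 and 5.02 in WT and no knockdown peak, and ONECUT1 (HNF6) had 6.07 and 6.79 and none. FOXA3, a pioneer factor, had 5.73 and 5.18 against 5.22 and 6.81, so its groups overlapped. NR5A2, a nuclear receptor of bile acid and cholesterol genes on chromosome 1, had both knockdown folds above both WT folds, 6.34 and 5.75 against 5.48 and 4.78. The shares kept in these lists rest on 7 to 18 genes.

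Cell cycle and replication genes were lost and kept at rates near the background, with 10 of 32 lost and 14 kept, beside 32.7% and 38.1%. Without chromosomes 1 and 6, 10 of 28 were lost and 10 kept, beside 34.3% and 35.8%. At equal length 20 and 19 of 34 had a WT peak and 12 and 16 a knockdown peak. The shares of all protein-coding genes at that length were also lower with the knockdown, 28.9% and 27.4% against 31.7% and 31.8% in WT. MCM7, a subunit of the replicative helicase, had folds of 11.9 and 10.7 against 5.21 and 5.94. RRM2, the small subunit of ribonucleotide reductase, had 13.3 and 7.40 against 3.59 and 3.56. CCNE2, CDK6, E2F1 and RRM1 were lost. Of p53 targets 6 of 23 were lost and 9 kept, beside the same 32.7% and 38.1%. Without chromosomes 1 and 6, 5 of 15 p53 targets were lost and 5 kept. The strongest lost p53 target was PMAIP1 (NOXA), a promoter of cell death on chromosome 18. It had 9.63 and 7.86 in WT and no peak in any of the 4 lists of the V2084D protein. PLK3, a stress-response kinase on chromosome 1, had 6.77 and 5.88 in WT against 7.49 and 8.05.

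Genes of TGF-beta response and epithelial-mesenchymal transition and of oxidative phosphorylation had the highest lost shares of the lists with over 20 genes, 11 of 28 and 12 of 29, beside 32.7%. That order did not hold at equal length, with 3 of 10 TGF-beta genes and 1 of 10 oxidative phosphorylation genes without a knockdown peak, beside 18.3%, and 5 and 6 of 10 in both knockdown lists, beside 55.3%. In the full lists without chromosomes 1 and 6, 11 of 28 TGF-beta genes were lost and 9 kept. Of 25 oxidative phosphorylation genes there, 11 were lost and 8 kept. ZEB2 and ZEB1, repressors of epithelial genes, had WT folds of 6.33 and 6.67 and of 5.97 and 4.47 and no knockdown peak. SMAD3, a transducer of TGF-beta signals, was kept at 8.28 and 9.99 against 4.39 and 5.34, and VIM, the mesenchymal intermediate filament, at 9.65 and 8.82 against 5.21 and 5.34. SDHA and SDHC, subunits of succinate dehydrogenase, and ATP5F1A of ATP synthase were lost. NDUFS7, a subunit of respiratory complex I, was kept at 10.3 and 18.5 against 9.78 and 9.96. Receptor kinase and feedback genes had 8 of 27 lost and 9 kept, beside 32.7% and 38.1% of all genes, and 7 and 9 of 25 without chromosomes 1 and 6. Their counts at equal length were 17 and 15 of 28 in WT and 10 and 11 with the knockdown. The shares of all protein-coding genes, 31.7% and 31.8% against 28.9% and 27.4%, did not overlap either. PHLDA1 and ERRFI1 were among the lost. Of 11 interferon and antigen presentation genes with a WT region 4 were lost and 2 kept, beside 32.7% and 38.1%. Without chromosomes 1 and 6, 2 of 8 were lost and 2 kept.

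Chaperones and partners of STUB1 had 7 of 23 genes lost and 7 kept, beside 32.7% and 38.1% of all genes. Without chromosomes 1 and 6, 6 of 21 were lost and 6 kept. HSP90AA1 had folds of 6.85 and 8.15 in WT and 6.60 and 5.57 with the knockdown, HSP90AB1 8.72 and 8.25 against 6.85 and 5.85, and HSP90B1, the form of the endoplasmic reticulum, was lost. At equal length the knockdown libraries differed from each other, with 13 and 7 of 25 genes against 14 and 14 in WT. The shares of all protein-coding genes were 28.9% and 27.4% against 31.7% and 31.8%. The strongest peak within 10 kb of STUB1 had a fold of 5.96 and 9.10 in WT and 6.26 and 3.95 with the knockdown. ChIP peaks near STUB1 do not measure its mRNA or protein, so the knockdown could not be checked here. The strongest peak within 10 kb of ARID1A had 5.97 and 9.33 in WT and 10.02 and 9.53 with the knockdown, ranked 483 and 55 against 5 and 5, and had 24.0 and 32.3 in V2084D alone. At this gene peaks of the chromosomal locus and reads of the lentiviral ARID1A sequence cannot be told apart in these lists.

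Beside the 61.5% of all protein-coding genes, a WT region lay near 1 of 10 hepatocyte markers, 3 of 9 fibroblast and endothelial markers, 3 of 8 blood cell markers, 5 of 7 neuron markers and none of 8 olfactory receptor genes. Occupancy of a gene is not its expression, so the labelled cell type could not be checked by these markers.

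Among the 1613 regions in all 4 lists of 6000, rank differences between groups were only a little larger than those within groups. The median absolute difference in rank was 939 between the WT lists, 912 between the knockdown lists and 1070 to 1205 for the 4 pairs of a WT and a knockdown list. Both knockdown lists ranked 340 regions (21.1%) better than either WT list and 343 (21.3%) worse. Ranks in random order would also give many such regions, and that share was not estimated here. Of the 340, 35.9% lay on chromosome 1, against 10.2% of the 343 and 19.1% of all 1613. The regions named here by the largest shift were chosen after their values were seen. HDAC5, a class IIa histone deacetylase, ranked 5932 and 5847 in WT and 1710 and 1391 with the knockdown, while its fold was 6.23 and 5.94 in WT and 5.38 and 5.58 with the knockdown. ARF1, a GTPase of Golgi transport on chromosome 1, ranked 5052 and 4002 against 382 and 285 with folds of 5.97 and 5.97 against 6.95 and 6.80. TOMM70, an import receptor of mitochondria, ranked 569 and 829 against 4884 and 4924 with 9.89 and 8.44 against 3.91 and 3.86. PTCH1, the Hedgehog receptor, ranked 233 and 831 against 4093 and 5160.

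Promoters that overlapped a lost or a kept WT region were alike in base composition. Each promoter was classed by the strongest WT region that overlapped it, and not by the 10 kb rule used for genes. Of 15843 RefSeq promoters of protein-coding genes, 7794 overlapped a WT region. Their mean GC content was 66.7%, against 56.2% for promoters without one. It was 66.9% at the 3176 lost and 66.3% at the 2314 kept promoters. The GC box, the binding motif of SP factors, was found in 77.0% of lost, 75.0% of kept and 58.5% of all promoters. The CCAAT box, bound by NF-Y, was in 36.5%, 37.5% and 36.4%, and the ETS motif in 20.3%, 23.1% and 14.2%. With strength bins weighted alike the ETS shares were 20.7% lost and 22.2% kept, those of the GC box 76.4% and 77.9%, and those of the CCAAT box 36.4% and 38.8%. The TATA motif was in 3.94% of lost and 4.88% of kept promoters and in 9.63% of all, and the TEAD motif in 8.94%, 9.59% and 11.7%. These shares describe the printed window length alone, and no test was made of them.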

How the data were processed

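Flag ChIP-seq of Huh7 cells was analysed from the peak lists that the authors deposited, 1 per library, so calls were made per library. The submitters' processing notes name hg38 as the build, MACS2, Bowtie2 and SAMtools, and also Trimmomatic, Picard, deepTools and bedtools. Versions, settings and the control used for calling are not stated in these sources. Each deposited list gives a fold enrichment (a ratio over the caller's background), −log10 p, −log10 q, a score derived from these that was not used, and a summit. The lists reached q values of 0.229 to 0.248.

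Lists were compared with Python 3.11.15, numpy 2.4.6, pandas 2.3.3 and scipy 1.17.1, and the overlap code was tested on simulated lists. Peaks were joined at an overlap of at least 1 bp. Genes and promoters came from RefSeq tables of GRCh38.p14, which give a strand and start for 15843 of 20037 protein-coding genes; for the rest either end was used. Of 68 genes named by rule, 53 had a promoter entry. Library values were compared by two-sided exact permutation tests with Benjamini-Hochberg adjustment over 5 comparisons; with 2 libraries against 2, no p can be under 0.333. Intervals (95%, exact binomial unless Wilson is named) cover counting error only. The members, gene lists and tests were chosen with earlier results of these data known. Genes were named by rule: the 10 nearest the strongest regions of each class within 10 kb, up to 4 lost and 4 kept members per gene list, and ARID1A and STUB1; others are list members or said to be chosen later. A few genes named by this rule are left out of the text. Alternatives were stricter overlap, stricter thresholds, other list lengths, other gene distances, each library left out and a replicate block. Those without chromosomes 1 and 6 and at equal length on each chromosome were chosen after seeing the data.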

Additional observations from a re-analysis of the deposited data

How the results depend on the processing

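The lower peak number with the knockdown kept its direction in all 8 alternatives that can change it (overlap rules and a replicate block cannot, and lists of equal length give no value), and leaving out 1 library gave log2 differences of −2.02 to −1.60. The gene-start difference was reversed at −log10 q of at least 5 (−0.54 points) and in lists of 6000 (−10.1 points); within lists of 6000 it stayed below 0 in all 9 alternatives that can change it, at −8.46 with equal length on each chromosome. The excess of overlap within groups over that between groups stayed above 0 in all 11, with 1.75 to 12.7 points when 1 library was left out.

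Counts depended on the criteria, as their construction implies (fewer peaks or stricter matches). With overlap of at least 50% of both peaks, coverage was 24.9%, 1509 regions were kept, 593 knockdown regions lacked a WT peak, and at equal length 1425 regions were in WT only and 693 in all 4 lists. With summits within 200 bp, 1842 regions were kept, 333 knockdown regions lacked a WT peak, and 947 were in all 4 lists. At −log10 q of at least 5, coverage was 25.6%, with 3826 regions lost, 829 kept, 1113 genes kept and 23 knockdown regions without a WT peak. At a fold of at least 5 it was 26.1%, with 3310 regions lost, 720 kept and 1102 genes kept. In lists of 6000 coverage was 60.5%, with 869 regions lost, 1613 kept, 770 genes lost, 2328 kept, and 612 knockdown regions without a WT peak. In lists of 3000, 446 regions were in WT only, 371 in the knockdown only and 640 in all 4. Genes kept numbered 3046 within 1000 bp and 8172 within 50000 bp of a gene end. Without chromosomes 1 and 6, 32 knockdown regions lacked a WT peak.

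Leaving out 1 library in turn gave coverage of 23.7% to 41.5%, 9445 to 18407 regions lost, 3855 to 6712 kept, 5051 to 6618 genes lost, 4745 to 7274 genes kept and 131 to 709 knockdown regions without a WT peak. At equal length it gave 1286 to 2276 regions in WT only, 979 to 2262 in the knockdown only and 1971 to 2254 in all 4 lists, since 1 list a group then defines a region. With replicate numbers as a block, the differences were the same (log2 −1.81 and 12.1 points, exact sign-flip p = 0.5, the smallest 2 pairs allow). The labels do not say that a number pairs libraries, and rank differences between replicates 1 and 2 correlated at −0.04 across regions between the groups, so pairing was not established. Depth is unknown and limits every count of lost regions.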
